A study of Mus musculus with 16 samples.

Results

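Sterol and fatty acid metabolism was followed here through 37 genes: 18 enzymes of cholesterol synthesis, 6 genes that regulate it or move sterols, 6 of fatty acid synthesis, 4 of the oxysterol response and cholesterol efflux, and 3 of fatty acid oxidation. The genes were listed by their known roles and were matched to the arrays by symbol or an older synonym (Msmo1 appears as Sc4mol). All 37 had probes, 68 in number. Of these genes 36 passed the filter on dim probes, against 18404 genes tested in all. The exception was Scd1, a desaturase that puts the double bond into saturated fatty acids, whose probe was well above background on 1 array of memory stimulated cells and on no other array.

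CD8 T cells came from C57BL/6N mice, all females aged 7 weeks, and were sorted as CD8+Thy1.2+ cells with high CD44 (memory phenotype) or low CD44 (naive). Each kind was kept for 4 h in Iscove's DMEM with 8% fetal bovine serum, penicillin, streptomycin, L-glutamine and β-mercaptoethanol, with 10 ng/mL PMA plus 500 ng/mL ionomycin for the stimulated groups and neither agent for the resting groups. PMA switches on protein kinase C, and ionomycin lets calcium into the cell, so the pair bypasses the T cell receptor. The 4 groups were memory stimulated, memory resting, naive stimulated and naive resting, with 4 one-colour arrays each, and sort and culture were carried out on 4 separate occasions. Memory phenotype was defined by CD44 alone, the cells had no lipid source other than serum named in the labels, and nothing used here states how many mice went into a sort.

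Cells obtain cholesterol by making it from acetyl-CoA through the mevalonate pathway and the sterol branch, or by taking up lipoprotein. The transcription factor SREBP-2, made from Srebf2, drives the genes of both routes when sterols in the endoplasmic reticulum are low; Scap escorts it to the Golgi, and Insig1 and Insig2 hold it back when sterols are plentiful. Oxysterols activate the receptors LXRβ and LXRα (Nr1h2 and Nr1h3), which turn on the exporters Abca1 and Abcg1. T cells that are about to divide need new membrane, and activated CD8 T cells are known to shift from fatty acid oxidation towards sterol and fatty acid synthesis.

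Levels are log2 processed signal minus the array's 75th percentile, so 1 unit is a doubling and 0 is that percentile, and levels are not compared between probes. Across arrays the percentile was 504.3 to 678 in intensity, and the share of spots well above background was 59.3% to 66.5%. Replicates of a group correlated at 0.9784 to 0.9953. The sort marker Cd44 had a summed level of 3.36 to 3.59 in memory resting cells and of -0.75 to -0.45 in naive resting cells, and the 5 CD8 T cell markers together lay between 7.42 and 8.5 on every array. That sum weighs bright probes most: after stimulation 1 of the 5 markers was called higher and 3 lower in memory cells, and 4 were lower in naive cells, among them Cd8a (-1.38 in memory and -1.59 in naive cells). Of the 4 adipocyte and hepatocyte markers 1 was tested. The 4 arrays of each group shared a slide and a scan of their own, so slide, scan and group cannot be told apart in any comparison below.

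Stimulation changed most of these genes in both cell types, and it split them. In memory phenotype cells 13 of the 36 were higher and 17 lower after stimulation (limma, adjusted p under 0.05), against 30.1% of all genes tested that were higher and 40.8% that were lower. In naive cells 15 were higher and 18 lower, against 36.7% and 32% of all genes. Since most genes on the arrays changed, a call alone does not set a gene of this list apart. The median change was -0.21 in the memory response against -0.21 for all genes, and -0.18 in the naive response against 0.11 for all genes. In both responses 13 genes were higher and 15 lower, and no gene was called in opposite directions in memory and naive cells. How often calls matched or opposed each other over all genes was not counted, so neither result sets this list apart. Among the called genes, the 4 stimulated and 4 resting arrays overlapped only for Hmgcs1 and Sc5d, both in naive cells. Overlap was not counted over all genes, so its absence does not set this list apart. In bulk samples, fewer cells of a type and less RNA per cell cannot be told apart.

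**Figure D1:**
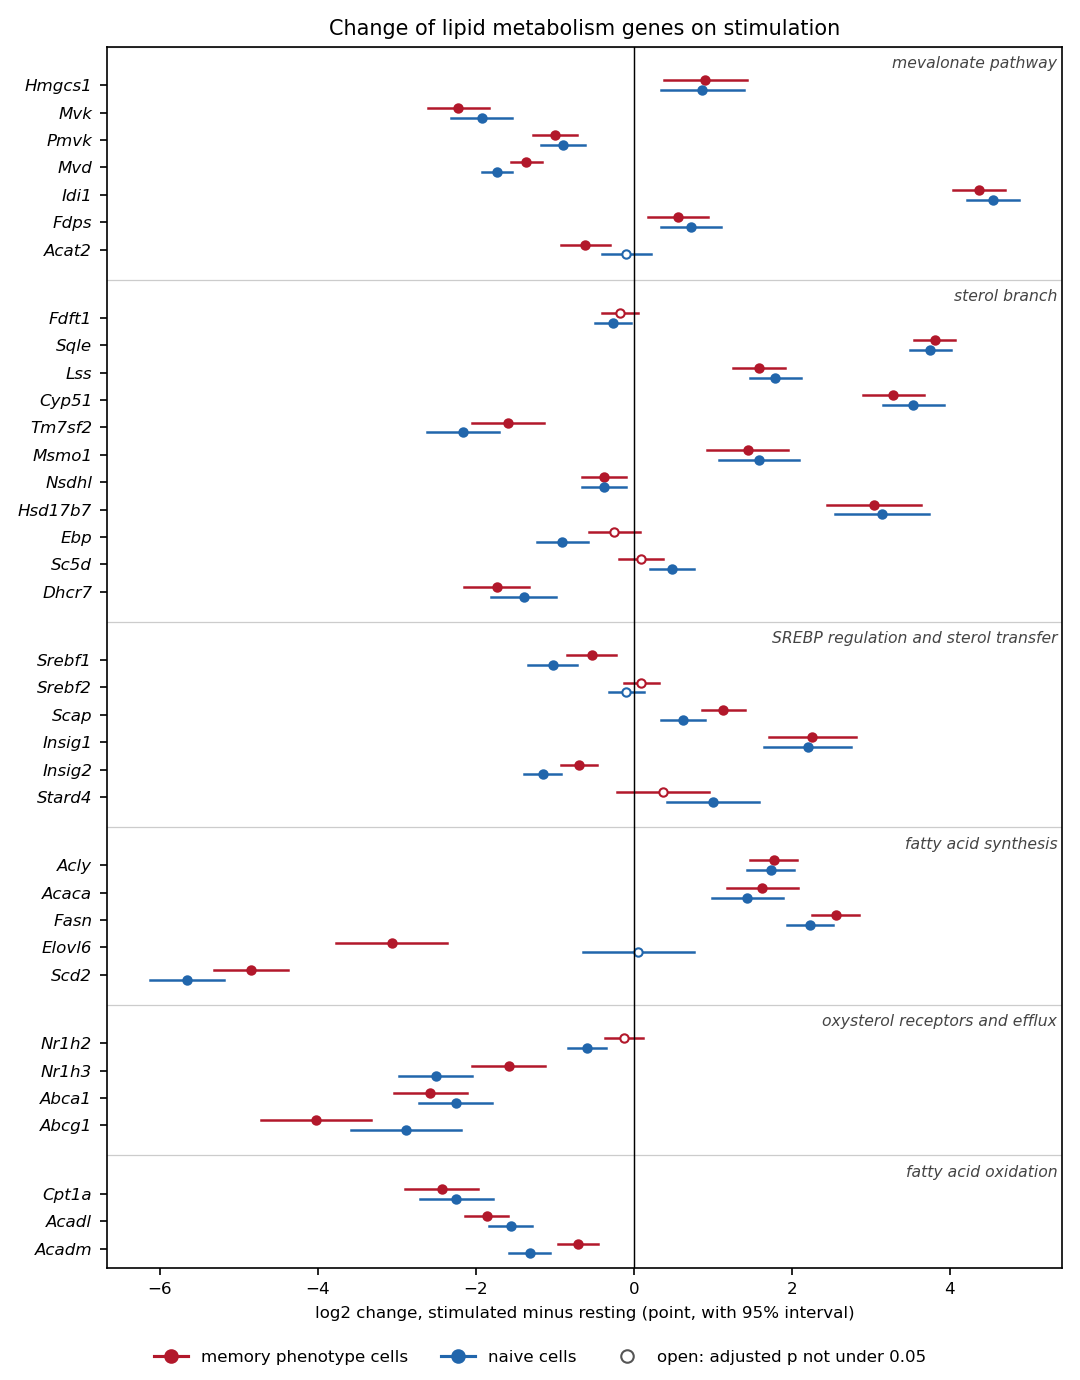
Log2 change on stimulation of the 36 tested genes, grouped by role, with memory phenotype cells (red) above naive cells (blue); points are limma estimates, bars are 95% intervals and open points did not reach an adjusted p of 0.05. The largest rise was that of Idi1 (4.37 in memory and 4.55 in naive cells) and the largest fall that of Scd2 (-4.85 and -5.66), while enzymes of the same pathway lie on both sides of 0.

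The mevalonate pathway turns acetyl-CoA into the isoprenoid units of sterols, and its enzymes went both ways. In memory cells 3 of 7 were higher and 4 lower, against 30.1% and 40.8% of all genes. In naive cells 3 were higher and 3 lower, against 36.7% and 32%. Idi1, the isomerase that makes the second isoprenoid building block, moved most. Its level was 4.95, 5.29, 5.24 and 4.85 on the arrays of memory stimulated cells, against 0.51, 0.73, 0.72 and 0.86 in memory resting cells. In naive stimulated cells it was 5.44, 5.62, 5.69 and 5.34, against 0.54, 1.12, 1.13 and 1.12 in naive resting cells. Every stimulated array thus lay far above every resting one, a rise of 4.37 ± 0.15 (SE) in memory cells (20.7-fold, adjusted p = 3.1e-12) and of 4.55 ± 0.15 in naive cells (23.4-fold, adjusted p = 1.96e-12). A second Idi1 probe gave 5.06 in memory and 4.81 in naive cells. The files place the first probe at chr2:53701852-53701911 of build mm7, whereas the RefSeq table of GRCm38.p6 has the gene on chromosome 13.

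The other 2 that rose did so modestly. Hmgcs1, which makes the HMG-CoA that enters the pathway, rose by 0.91 ± 0.25 in memory cells (adjusted p = 0.00401) and by 0.87 ± 0.25 in naive cells (adjusted p = 0.00556). Fdps, which joins isoprenoid units into farnesyl pyrophosphate, rose by 0.56 ± 0.18 (adjusted p = 0.0103) and by 0.72 ± 0.18 (adjusted p = 0.00194). Both calls depended on the processing. Under quantile scaling Hmgcs1 changed by 0.49 in memory cells (adjusted p = 0.0641) and by 0.50 in naive cells (adjusted p = 0.0593), and the authors' table gave 0.50 and 0.42 (adjusted p = 0.0521 and 0.0974). The second Fdps probe changed by 0.13 in memory and by -0.02 in naive cells, and the mean of both probes was not called.

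The 3 consecutive enzymes that carry mevalonate to isopentenyl pyrophosphate fell together. Mvk, mevalonate kinase, was at -3.93, -4.19, -4.23 and -4.04 in memory stimulated cells, against -1.42, -2.11, -1.97 and -2.01 in memory resting cells. In naive stimulated cells it was at -4.05, -4.48, -4.48 and -3.97, against -1.93, -2.52, -2.33 and -2.49 in naive resting cells. Its fall was 4.66-fold in memory cells (log2 -2.22 ± 0.18, adjusted p = 2.55e-08) and 3.8-fold in naive cells (-1.93 ± 0.18, adjusted p = 1.31e-07). With normexp background correction the changes were -1.19 and -0.99, still called. Mvd, the decarboxylase at the end of this stretch, fell by 1.36 ± 0.09 in memory cells (adjusted p = 3.16e-09) and by 1.73 ± 0.09 in naive cells (adjusted p = 2.22e-10). Pmvk, the kinase between them, changed by -1.001 ± 0.13 (adjusted p = 5.65e-06) and by -0.90 ± 0.13 (adjusted p = 1.84e-05). Acat2, the cytosolic thiolase that starts the pathway, was lower in memory cells (-0.62 ± 0.14, adjusted p = 0.00138), a call lost in the authors' table (-0.23, adjusted p = 0.0695). In naive cells it changed by -0.10 ± 0.14 (adjusted p = 0.574).

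The sterol branch, from squalene to cholesterol, was split in the same way. In memory cells 5 of 11 genes were higher and 3 lower, against 30.1% and 40.8% of all genes. In naive cells 6 were higher and 5 lower, against 36.7% and 32%. Sqle, squalene epoxidase, a rate-limiting step, was at 2.33, 2.64, 2.75 and 2.41 in memory stimulated cells, against -1.33, -1.17, -1.23 and -1.38 in memory resting cells. It was at 3.02, 3.34, 3.42 and 3.23 in naive stimulated cells, against -0.63, -0.58, -0.44 and -0.36 in naive resting cells. It rose 14-fold in memory cells (3.81 ± 0.12, adjusted p = 1.33e-12) and 13.5-fold in naive cells (3.76 ± 0.12, adjusted p = 1.41e-12), and its level was lower in memory than in naive cells in both states.

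Cyp51, which removes the first methyl group from lanosterol, rose 9.76-fold in memory cells (3.29 ± 0.18, adjusted p = 3.55e-10) and 11.6-fold in naive cells (3.54 ± 0.18, adjusted p = 1.63e-10), and its other 2 probes rose by 2.88 and 3.09 in memory cells and by 3.103 and 3.49 in naive cells. Hsd17b7, a keto reductase of the later steps, rose by 3.04 ± 0.28 (adjusted p = 1.08e-07) and by 3.14 ± 0.28 (adjusted p = 7.63e-08). Lss, which closes the rings to form lanosterol, rose by 1.59 ± 0.15 (adjusted p = 2.02e-07) and 1.80 ± 0.15 (adjusted p = 5.19e-08). The other Lss probes rose by less, by 0.46 and 1.31 in memory cells and by 0.59 and 1.25 in naive cells. Msmo1, which oxidises methyl groups of the sterol, rose by 1.44 ± 0.24 (adjusted p = 6.76e-05) and 1.59 ± 0.24 (adjusted p = 2.66e-05).

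On the falling side, Tm7sf2, a sterol reductase, changed by -1.59 ± 0.22 in memory cells (adjusted p = 8.19e-06) and by -2.16 ± 0.22 in naive cells (adjusted p = 2.8e-07). Dhcr7, which makes the last reduction to cholesterol, changed by -1.73 ± 0.19 (adjusted p = 1e-06) and by -1.39 ± 0.19 (adjusted p = 1.1e-05). Ebp, the isomerase ahead of it, was lower in naive cells (-0.91 ± 0.15, adjusted p = 7.17e-05), while the change in memory cells was -0.25 ± 0.15 (adjusted p = 0.156). Quantile scaling called Ebp lower in memory cells too (-0.83, adjusted p = 5.9e-06).

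Nsdhl, which removes carboxyl groups from the sterol, was lower by little, -0.38 ± 0.13 in both cell types (adjusted p = 0.0172 in memory and 0.0175 in naive cells). Its call ended without memory stimulated replicate 3 (-0.31, adjusted p = 0.0572) or 4 (-0.32, adjusted p = 0.0552) in memory cells, and without naive resting replicate 4 (-0.30, adjusted p = 0.0568) or naive stimulated replicate 2 (-0.32, adjusted p = 0.0606) in naive cells. Quantile scaling also ended it in both. Fdft1, squalene synthase, changed by -0.17 ± 0.11 in memory cells (adjusted p = 0.154) and by -0.26 ± 0.11 in naive cells (adjusted p = 0.0377), a call that ended when any 1 of 7 of the 16 arrays was left out (adjusted p 0.0509 to 0.0811).

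Sc5d, the desaturase before Dhcr7, depended on the probe. The brighter probe, at chr9:42189144-42189203 of mm7, changed by 0.09 ± 0.13 in memory cells (adjusted p = 0.549) and by 0.48 ± 0.13 in naive cells (adjusted p = 0.00437). The dimmer one, at chr9:42186374-42186433 on the same strand and made to another transcript record, changed by -2.14 ± 0.21 and by -1.84 ± 0.21 (adjusted p = 1.95e-07 and 1.07e-06 in a fit of all probes). The files thus give no single direction for Sc5d.

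**Figure D2:**
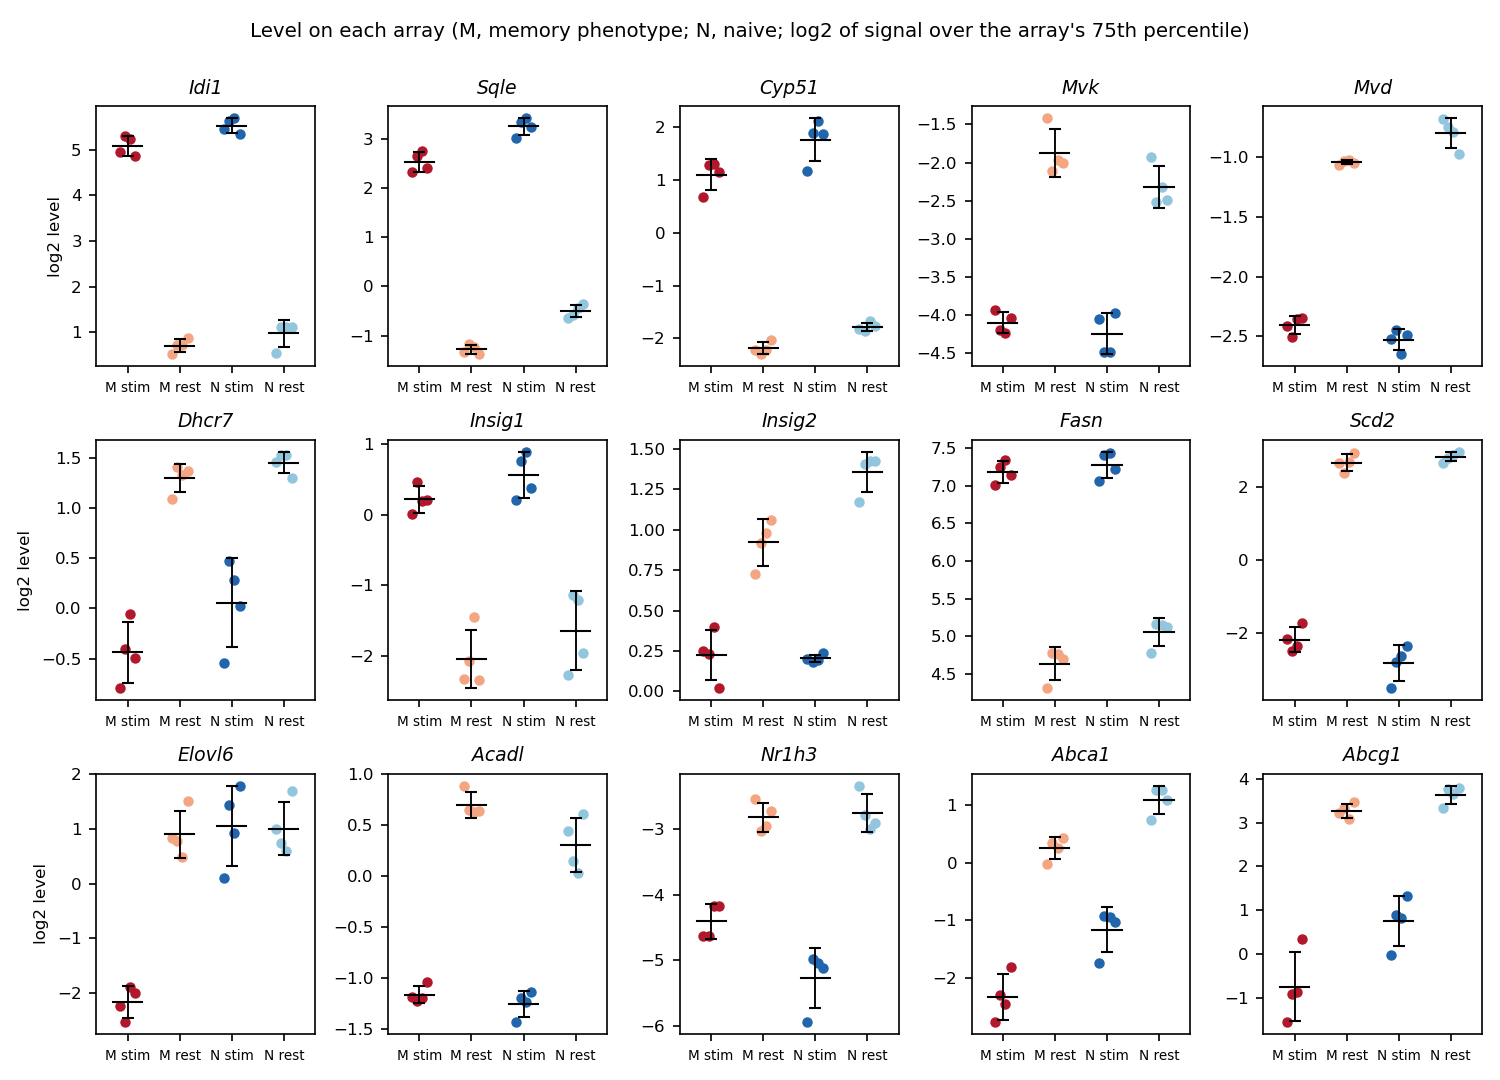
Log2 level of 15 of the genes on each of the 16 arrays, 1 point per array, with the mean and SD of 4 arrays in black; M is memory phenotype, N naive, and each panel has its own scale. Idi1, Sqle and Cyp51 are high in both stimulated groups, Mvk, Mvd and Dhcr7 are low there, and Elovl6 is low only on the 4 arrays of memory stimulated cells.

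The promoters of enzymes on both sides of this split held the same short motif. The RefSeq promoter table (GRCm38.p6) holds the 250 bases before and 50 after the start of 27025 genes, among them 30 of the 37 listed here. Abcg1, Fdft1, Fdps, Scd1, Scd2, Sqle and Stard4 were not matched. CCAAT, the core bound by NF-Y, a partner of SREBP, was searched on both strands and was present for 6 of the 6 matched sterol enzymes that were higher in both responses and for 6 of the 6 that were lower in both, against 41.1% of all genes in the table. GGGCGG, the core of an Sp1 box, was present for 6 of 6 and for 5 of 6, against 38.2% of all genes. The sterol regulatory element TCACNCCAC, the site of SREBP, was found for Hmgcs1 alone among the 30, against 1.44% of all genes. The E-box CACGTG was present for 6 of the 30, against 8.09%. The LXR element, searched as 2 copies of AGGTCA in the same direction with a gap of 4 bases, was present for none of the 30, against 0.0148% of all genes. So rare an exact match was unlikely among 30 genes from the start, so its absence says nothing about LXR sites. These are matches of letters in a short window and no measure of binding.

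The 180 bases before the start of Hmgcs1 and Idi1, which rose, and of Mvk and Mvd, which fell, are printed 5′ to 3′ along the gene because both the risers and the fallers hold the motif. Capitals mark CCAAT, or its reverse complement, and in Hmgcs1 also the sterol regulatory element.
Hmgcs1 (GRCm38.p6 chr13:119690171-119690350, plus strand): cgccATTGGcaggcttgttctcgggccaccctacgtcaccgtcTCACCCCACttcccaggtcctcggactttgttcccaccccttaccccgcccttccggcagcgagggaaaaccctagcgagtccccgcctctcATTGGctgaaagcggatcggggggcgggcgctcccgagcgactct
Idi1 (GRCm38.p6 chr13:8885426-8885605, plus strand): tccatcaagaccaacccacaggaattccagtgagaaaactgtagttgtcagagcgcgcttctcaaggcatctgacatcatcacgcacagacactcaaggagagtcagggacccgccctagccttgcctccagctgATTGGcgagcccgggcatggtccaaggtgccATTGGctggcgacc
Mvk (GRCm38.p6 chr5:114444089-114444268, plus strand): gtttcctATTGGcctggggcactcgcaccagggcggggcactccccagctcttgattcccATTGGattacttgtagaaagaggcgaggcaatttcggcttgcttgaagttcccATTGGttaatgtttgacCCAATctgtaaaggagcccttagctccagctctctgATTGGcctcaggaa
Mvd (GRCm38.p6 chr8:122443423-122443602, minus strand): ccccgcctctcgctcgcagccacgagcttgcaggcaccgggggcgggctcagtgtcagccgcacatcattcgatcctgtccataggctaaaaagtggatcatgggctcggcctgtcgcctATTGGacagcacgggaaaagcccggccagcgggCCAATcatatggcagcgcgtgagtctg
Mvk, which fell, has 5 CCAAT matches in this stretch, and Idi1, which rose most, has 2, as have Hmgcs1 and Mvd.

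Among the regulators, the feedback gene Insig1 rose and its relative Insig2 fell. Insig1, itself a classic SREBP target, was at 0.01, 0.46, 0.19 and 0.22 in memory stimulated cells, against -2.32, -2.07, -1.45 and -2.34 in memory resting cells. It was at 0.21, 0.76, 0.89 and 0.38 in naive stimulated cells, against -2.27, -1.14, -1.20 and -1.95 in naive resting cells. All stimulated arrays were above all resting ones, and the rise was 4.8-fold in memory cells (2.26 ± 0.26, adjusted p = 1.39e-06) and 4.6-fold in naive cells (2.20 ± 0.26, adjusted p = 1.9e-06). Insig2 changed by -0.70 ± 0.11 in memory cells (adjusted p = 3.18e-05) and by -1.15 ± 0.11 in naive cells (adjusted p = 1.33e-07).

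Scap, the escort of SREBP, rose by 1.13 ± 0.13 in memory cells (adjusted p = 1.2e-06) and by 0.62 ± 0.13 in naive cells (adjusted p = 0.000493). The memory change was 0.52 under quantile scaling and 0.51 in the authors' table, both still called. The naive call ended under quantile scaling (0.16, adjusted p = 0.151) and in the authors' table (0.02, adjusted p = 0.882). Srebf1, whose products drive fatty acid genes above all, changed by -0.53 ± 0.15 (adjusted p = 0.00438) and by -1.03 ± 0.15 (adjusted p = 1.37e-05). Its memory change was -1.08 under quantile scaling and -1.14 in the authors' table. Stard4, which carries cholesterol between membranes, rose by 1.01 ± 0.27 in naive cells (adjusted p = 0.0043) and changed by 0.37 ± 0.27 in memory cells (adjusted p = 0.24), where its 2 dimmer probes rose by 1.66 and 1.45.

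For Srebf2 the probes again differed. The brightest, at chr15:82289660-82289719 of mm7, was at 3.80, 3.86, 4.16 and 3.82 in memory stimulated cells, against 3.65, 3.96, 3.80 and 3.84 in memory resting cells. It was at 4.33, 4.42, 4.37 and 4.34 in naive stimulated cells, against 4.35, 4.50, 4.51 and 4.49 in naive resting cells. These ranges overlap, and the changes were 0.10 ± 0.10 (adjusted p = 0.411) and -0.10 ± 0.10 (adjusted p = 0.416). Its 3 other probes changed by 0.27, 0.71 and 1.14 in memory cells and by 0.71, 0.44 and 1.45 in naive cells. Of those, the probe at chr15:82257952-82258011 rose in both (adjusted p = 2.19e-05 and 1.68e-06 in the fit of all probes). Quantile scaling and the authors' table instead called the brightest probe lower in both cell types, by 0.44 to 0.56 log2 units, so no direction is given for this gene.

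**Figure D3:**
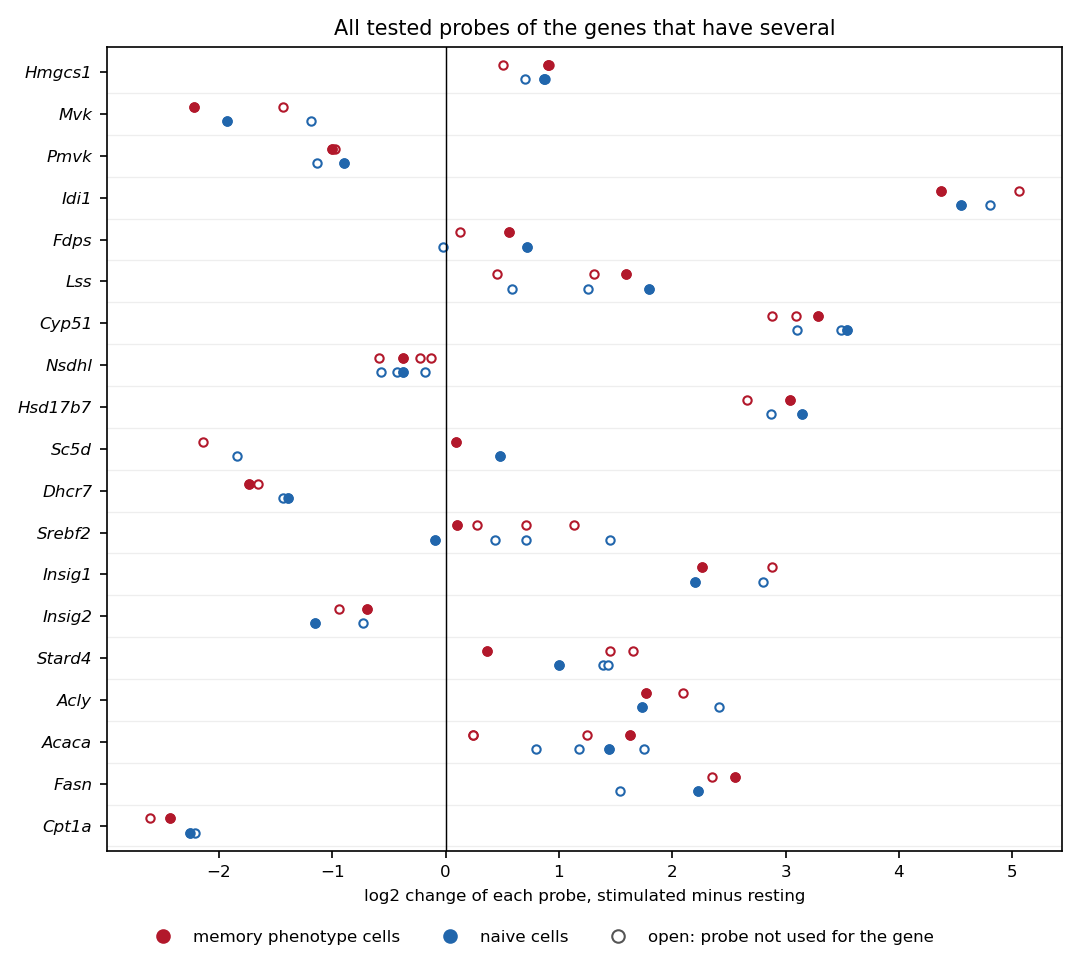
Log2 change on stimulation of every tested probe of the 19 genes with more than 1, memory phenotype cells in red above naive cells in blue; filled points are the probes that stand for the gene, open points the others. The probes of Idi1, Cyp51, Hsd17b7, Dhcr7 and Cpt1a lie close together, those of Sc5d lie on both sides of 0, and those of Srebf2, Stard4, Acaca and Lss spread widely.

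Of 5 tested genes of fatty acid synthesis, 3 rose and 2 fell in memory cells, against 30.1% and 40.8% of all genes. In naive cells 3 rose and 1 fell, against 36.7% and 32%. Fasn, fatty acid synthase, was at 7.01, 7.25, 7.35 and 7.15 in memory stimulated cells, against 4.31, 4.77, 4.76 and 4.69 in memory resting cells. It was at 7.06, 7.41, 7.43 and 7.23 in naive stimulated cells, against 4.77, 5.16, 5.14 and 5.13 in naive resting cells. It rose 5.88-fold in memory cells (2.56 ± 0.14, adjusted p = 2.6e-10) and 4.69-fold in naive cells (2.23 ± 0.14, adjusted p = 1.19e-09), with no overlap. Acly, which makes cytosolic acetyl-CoA from citrate, rose by 1.77 ± 0.14 (adjusted p = 1.89e-08) and 1.73 ± 0.14 (adjusted p = 2.49e-08). Acaca, which makes malonyl-CoA, the unit that Fasn adds, rose by 1.63 ± 0.21 (adjusted p = 5.08e-06) and 1.44 ± 0.21 (adjusted p = 1.9e-05). Of its 3 other probes all rose in naive cells (0.80, 1.18 and 1.75), and in memory cells 1 rose (1.25) while 2 changed by 0.24 each without reaching the threshold.

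Scd2, a stearoyl-CoA desaturase and a close paralog of Scd1, fell furthest of all members. Its level was -2.17, -2.51, -2.37 and -1.73 in memory stimulated cells, against 2.65, 2.37, 2.68 and 2.93 in memory resting cells. It was -3.53, -2.80, -2.64 and -2.38 in naive stimulated cells, against 2.66, 2.79, 2.86 and 2.96 in naive resting cells. The groups lay more than 4 log2 units apart on every array, and the fall was 28.9-fold in memory cells (-4.85 ± 0.22, adjusted p = 4.28e-11) and 50.4-fold in naive cells (-5.66 ± 0.22, adjusted p = 9.52e-12). Scd2 was well above background on all 16 arrays.

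Elovl6, which lengthens palmitate to stearate, behaved differently in the 2 cell types. It was at -2.24, -2.53, -1.89 and -2.00 in memory stimulated cells, against 0.83, 0.78, 0.49 and 1.51 in memory resting cells. It was at 0.11, 1.43, 0.92 and 1.79 in naive stimulated cells, against 0.99, 0.74, 0.60 and 1.69 in naive resting cells. The 4 arrays of memory stimulated cells lay below all 12 others, which overlapped. The fall in memory cells was 8.37-fold (-3.07 ± 0.33, adjusted p = 6.88e-07), the change in naive cells was 0.06 ± 0.33 (adjusted p = 0.887, 95% interval -0.65 to 0.76), and the test of the difference between the responses gave -3.12 ± 0.47 (adjusted p = 0.00027). The call of that difference was kept when each array was left out in turn and under every other setting tried. Elovl6 is represented by 1 probe, at chr3:129477684-129477743 of mm7.

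Of the receptors and exporters of the oxysterol response, 3 of 4 fell in memory cells and 4 of 4 in naive cells, against 40.8% and 32% of all genes. Abcg1, an exporter of cholesterol to lipoprotein, was at -1.56, -0.92, -0.86 and 0.34 in memory stimulated cells, against 3.23, 3.33, 3.08 and 3.46 in memory resting cells. It was at -0.04, 0.89, 0.82 and 1.31 in naive stimulated cells, against 3.32, 3.76, 3.64 and 3.80 in naive resting cells. No stimulated array reached a resting one, and the fall was 16.3-fold in memory cells (-4.02 ± 0.33, adjusted p = 2.83e-08) and 7.38-fold in naive cells (-2.88 ± 0.33, adjusted p = 1.25e-06). Abca1, which loads cholesterol onto apolipoprotein, fell 5.98-fold in memory cells (-2.58 ± 0.22, adjusted p = 3.99e-08) and 4.77-fold in naive cells (-2.25 ± 0.22, adjusted p = 1.9e-07).

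Nr1h3 changed by -1.58 ± 0.22 in memory cells (adjusted p = 8.86e-06) and by -2.51 ± 0.22 in naive cells (adjusted p = 5.25e-08). In naive stimulated cells its probe was well above background on 2 of 4 arrays, and normexp background correction gave -0.63 and -0.78, both still called. Nr1h2 changed by -0.13 ± 0.11 in memory cells (adjusted p = 0.314) and by -0.59 ± 0.11 in naive cells (adjusted p = 0.000255). Genes of this group are also expressed in myeloid cells. After stimulation 40.8% of all genes were lower in memory cells and 32% in naive cells. Of 8 tested markers of monocytes, macrophages and neutrophils, 7 were lower in memory cells and 6 lower and 1 higher in naive cells. Their summed log2 level was 1.4 to 2.06 in memory stimulated cells, against 3.71 to 4.43 in memory resting cells, and 0.6 to 1.59 in naive stimulated cells, against 3.05 to 3.8 in naive resting cells. The 4 B cell markers summed to -2.58 to -2.09 in memory stimulated cells, against 0.35 to 0.63 in memory resting cells, and to -2.35 to -1.39 in naive stimulated cells, against 0.69 to 1.11 in naive resting cells. Of 2 NK cell markers 1 was lower in each response. The 3 dendritic cell markers went another way, with none called in memory cells and 3 higher in naive cells (median change 1.45). The part of these cells in the fall of Nr1h3, Abca1 and Abcg1 was not tested.

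All 3 genes of fatty acid oxidation fell in both cell types, against 40.8% of all genes in memory cells and 32% in naive cells. Cpt1a, which sends fatty acids into mitochondria, was at -1.83, -1.20, -1.14 and -1.14 in memory stimulated cells, against 0.90, 1.06, 1.17 and 1.30 in memory resting cells. It was at -2.05, -1.03, -1.01 and -1.46 in naive stimulated cells, against 0.70, 0.77, 0.86 and 1.13 in naive resting cells. The groups did not overlap, with a fall of 5.41-fold in memory cells (-2.44 ± 0.22, adjusted p = 7.65e-08) and of 4.76-fold in naive cells (-2.25 ± 0.22, adjusted p = 1.9e-07). Acadl, the long-chain acyl-CoA dehydrogenase, changed by -1.86 ± 0.13 (adjusted p = 4.27e-09) and -1.56 ± 0.13 (adjusted p = 3.29e-08). Acadm, its medium-chain counterpart, changed by -0.71 ± 0.12 (adjusted p = 8.93e-05) and -1.32 ± 0.12 (adjusted p = 1.11e-07). Its memory change was -1.19 both under quantile scaling and in the authors' table.

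Other lipid genes were read from 4 further lists, with 70 of 75 genes tested. Acss2, which makes acetyl-CoA from acetate, fell 18.3-fold in memory cells (-4.19 ± 0.20, adjusted p = 7.86e-11) and 14.7-fold in naive cells (-3.87 ± 0.20, adjusted p = 1.84e-10).

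Dgat2, which makes triglyceride, rose 12.3-fold in memory cells (3.62 ± 0.23, adjusted p = 1.54e-09), and Lpin1, a phosphatidate phosphatase on the same route, fell 7.97-fold (-3.00 ± 0.23, adjusted p = 1.49e-08). Both moved the same way in naive cells, with stimulated and resting means of 2.61 and -0.34 for Dgat2 and of -0.64 and 2.04 for Lpin1. Tests here are given for the response in which a gene ranked among the 4 largest called changes, which does not make a change particular to it. Eci2, an isomerase of fatty acid oxidation, fell 8.89-fold in naive cells (-3.15 ± 0.13, adjusted p = 1.35e-11). Fabp5, a fatty acid carrier, had no array of naive resting cells well above background and was at least 2.12-fold higher in naive stimulated cells (adjusted p = 5.25e-10). That bound sets its mean against, on each dim array, the lowest signal that was well above background or the probe's signal, whichever was higher. Over the oxidation list, 2 of 18 genes were higher and 14 lower in memory cells, with a median of -1.19 against -0.21 for all genes, and 2 were higher and 15 lower in naive cells, with a median of -1.41 against 0.11. Of 13 further synthesis genes, 6 were higher and 5 lower in memory cells, and 7 were higher and 2 lower in naive cells. Of 27 genes of uptake, transport and storage, 15 were higher and 10 lower in memory cells, and 14 were higher and 9 lower in naive cells. Of 12 regulators, 2 were higher and 6 lower in memory cells, and 6 were higher and 5 lower in naive cells. Of all genes tested, 30.1% were higher and 40.8% lower in memory cells, and 36.7% were higher and 32% lower in naive cells.

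**Figure D4:**
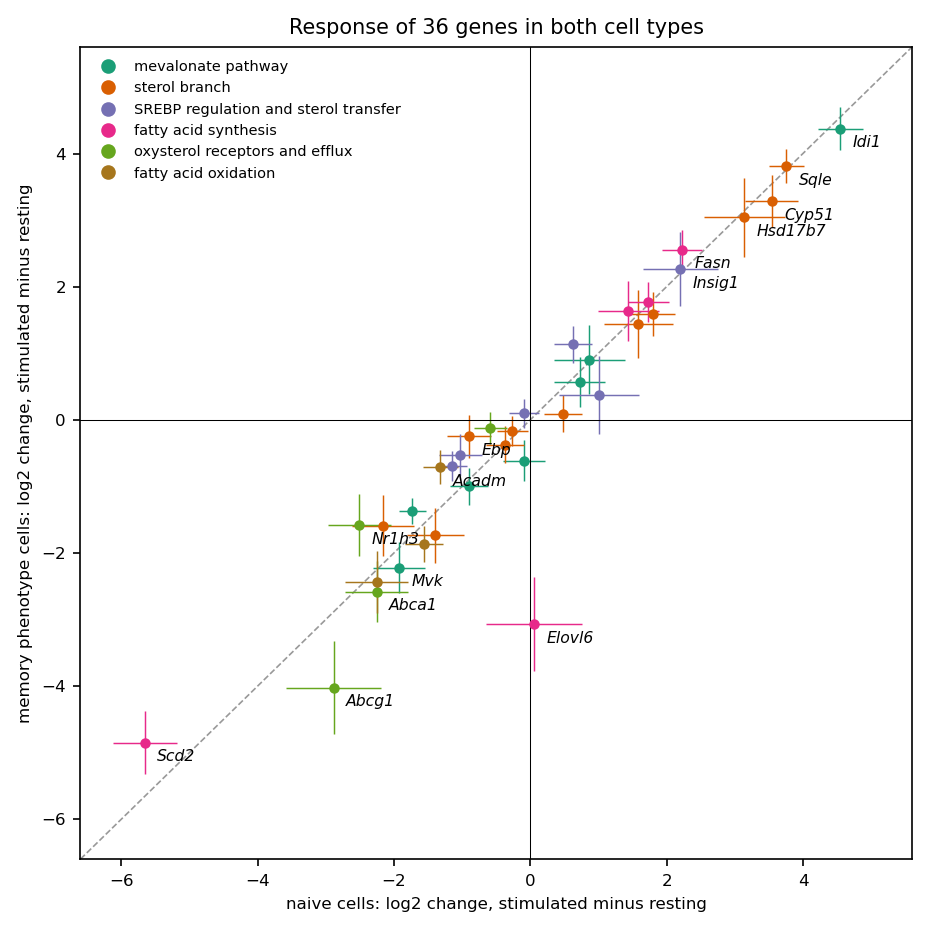
Log2 change on stimulation in memory phenotype cells (vertical) against that in naive cells (horizontal) for the 36 genes, coloured by role, with 95% intervals; the dashed line marks equal changes. Most points lie near the line, and Elovl6 (-3.07 in memory and 0.06 in naive cells) lies far from it.

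In memory resting cells 1 of 36 was higher and 7 lower than in naive resting cells, against 13.9% of all genes that were higher and 7.47% that were lower. The median difference was -0.20, against -0.01 for all genes. Markers of other cells differed at rest as well. Higher in memory cells were 2 of 8 markers of monocytes, macrophages and neutrophils, 2 of 3 of dendritic cells and 1 of 2 of NK cells. None of these was lower, and none of the 4 B cell markers was called. The NK cell markers summed to -1.26 to -0.13 in memory resting cells, against -3.54 to -2.76 in naive resting cells. The part of these cells in the differences was not tested. Same-numbered arrays of memory resting and naive resting cells deviated together in all 4 pairs (correlations 0.302 to 0.585). For replicate 3, however, the same-numbered array was not the best match. The replicate number is also the position on the slide, so sort occasion and array position cannot be told apart here. With the replicate number as a block over all 16 arrays, 2 genes were higher and 11 lower. That fit pairs the stimulated groups too, and not all of their same-numbered pairs deviated together. This block also raised the number of lower calls over all genes, so an added lower call alone does not set a gene apart. The count of higher calls over all genes with the block is not given. The block added Mvk (0.44, adjusted p = 0.0158) on the higher side, and Hmgcs1 (-0.58, adjusted p = 0.00828), Fdps (-0.33, adjusted p = 0.0453), Srebf1 (-0.42, adjusted p = 0.0285) and Tm7sf2 (-0.43, adjusted p = 0.0372) on the lower side. Sqle was 1.71-fold lower in memory resting cells (-0.77 ± 0.12, adjusted p = 0.000312), with no overlap of the arrays given above. Srebf2 was 1.57-fold lower (-0.65 ± 0.10, adjusted p = 0.000366), but the mean of its 4 probes was not called (-0.22, adjusted p = 0.248). Abca1 was at -0.02, 0.35, 0.26 and 0.43 in memory resting cells, against 0.74, 1.27, 1.27 and 1.10 in naive resting cells. That is a 1.79-fold lower level without overlap (-0.84 ± 0.22, adjusted p = 0.0123). Acadm was at 3.53, 4.06, 3.90 and 3.95 in memory resting cells, against 4.18, 4.50, 4.50 and 4.58 in naive resting cells, again without overlap (-0.58 ± 0.12, adjusted p = 0.00297).

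Insig2 was lower by little (-0.44 ± 0.11, adjusted p = 0.00928), as were Fasn (-0.42 ± 0.14, adjusted p = 0.0419) and Scap (-0.39 ± 0.13, adjusted p = 0.0413), and Acadl was the 1 gene that was higher (0.39 ± 0.13, adjusted p = 0.0412). The call of Insig2 ended with the mean of its probes (-0.28, adjusted p = 0.152). The calls of Fasn, Scap and Acadl were near the threshold. The call ended when any 1 of 10 of the 16 arrays was left out for Fasn, any 1 of 11 for Scap and any 1 of 9 for Acadl. Without memory resting replicate 1, for example, the differences were -0.31 (adjusted p = 0.138), -0.29 (adjusted p = 0.136) and 0.33 (adjusted p = 0.124). Without naive resting replicate 1, Hmgcs1 (-0.83, adjusted p = 0.00904), Fdps (-0.49, adjusted p = 0.0309), Idi1 (-0.41, adjusted p = 0.0313) and Mvk (0.57, adjusted p = 0.0267) passed the threshold that they missed with all arrays.

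**Figure D5:**
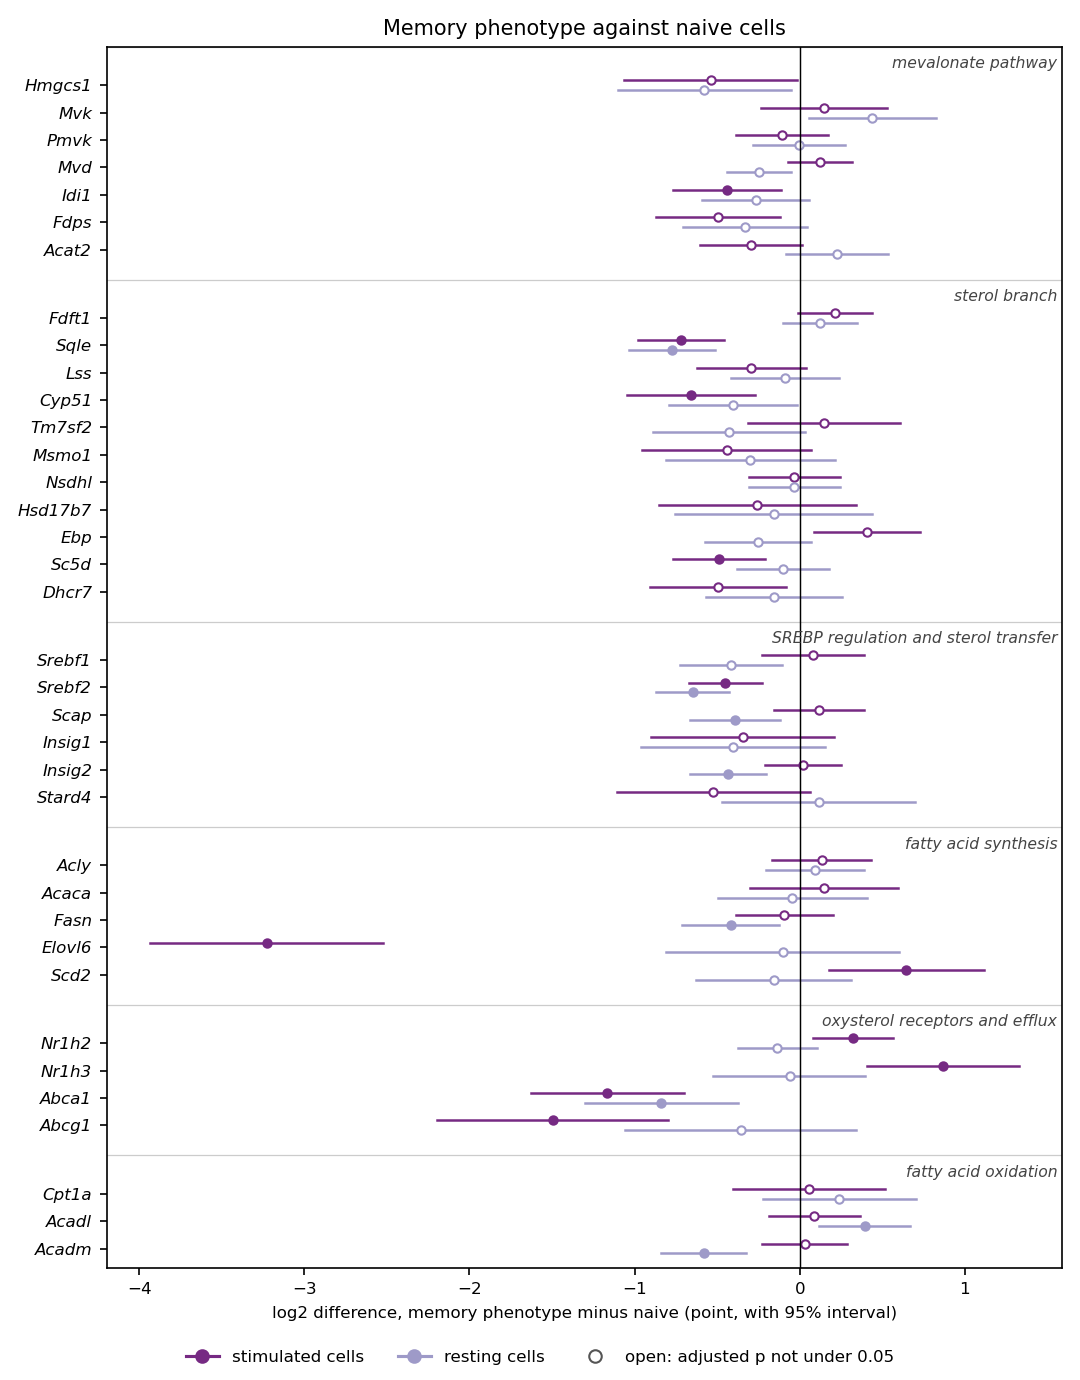
Log2 difference between memory phenotype and naive cells for the 36 genes by role, stimulated cells (dark) above resting cells (light), with 95% intervals; open points did not reach an adjusted p of 0.05. Most differences lie within 1 log2 unit of 0, and after stimulation Elovl6 (-3.23), Abcg1 (-1.50) and Abca1 (-1.17) stand lowest.

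After stimulation 3 genes were higher and 8 lower in memory than in naive cells, against 9.86% of all genes that were higher and 14.2% that were lower, with a median of -0.10 against -0.06 for all genes. Elovl6 was 9.36-fold lower in memory stimulated cells (-3.23 ± 0.33, adjusted p = 6.12e-06). Both exporters were lower too, Abcg1 by 2.82-fold (-1.50 ± 0.33, adjusted p = 0.00392) and Abca1 by 2.24-fold (-1.17 ± 0.22, adjusted p = 0.00126). The arrays of Abca1 were at -2.76, -2.29, -2.45 and -1.80 in memory stimulated cells, against -1.74, -0.92, -0.94 and -1.03 in naive stimulated cells, and did not overlap. Among the markers of other cells, 2 of 8 of monocytes, macrophages and neutrophils and 2 of 2 of NK cells were higher in memory stimulated cells. Lower were 1 of 3 dendritic cell markers and 1 of 4 B cell markers. The part of these cells in the differences after stimulation was not tested.

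Of the sterol enzymes, Sqle was 1.65-fold lower in memory stimulated cells (-0.72 ± 0.12, adjusted p = 0.000605), Cyp51 1.58-fold (-0.66 ± 0.18, adjusted p = 0.0161), Sc5d 1.4-fold (-0.49 ± 0.13, adjusted p = 0.0136) and Idi1 1.36-fold (-0.44 ± 0.15, adjusted p = 0.0476), and Srebf2 was 1.37-fold lower (-0.45 ± 0.10, adjusted p = 0.00526). The call of Srebf2 ended with the mean of its probes (-0.29, adjusted p = 0.115). The call of Cyp51 ended without memory stimulated replicate 1 (-0.52, adjusted p = 0.0569) or naive stimulated replicate 3 (-0.54, adjusted p = 0.0576), and that of Idi1 ended without any 1 of 9 arrays (-0.47 to -0.36, adjusted p 0.0528 to 0.128). The Idi1 call also ended with the mean of its probes (-0.28, adjusted p = 0.174). Its second probe differed by -0.12 (adjusted p = 0.642 in the fit of all probes). Nr1h3 was higher in memory stimulated cells (0.87 ± 0.22, adjusted p = 0.00898), but not with normexp background correction (0.19, adjusted p = 0.348). Scd2 (0.65 ± 0.22, adjusted p = 0.0448) and Nr1h2 (0.32 ± 0.11, adjusted p = 0.0495) were higher, calls that ended without any 1 of 10 and any 1 of 12 arrays.

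The responses of the 2 cell types differed by the test of the difference itself for 5 of 36 genes, 4 with a higher change in memory than in naive cells and 1 with a lower one, against 5.61% and 14.1% of all genes. The median was 0.02, against -0.01 for all genes. Beside Elovl6, Acadm fell less in memory cells (difference 0.61 ± 0.17, adjusted p = 0.0202). The differences for Nr1h3 (0.93 ± 0.31, adjusted p = 0.0446), Ebp (0.66 ± 0.21, adjusted p = 0.0422) and Insig2 (0.46 ± 0.15, adjusted p = 0.0469) were near the threshold and ended without any 1 of 9, 12 and 13 of the 16 arrays. They also ended for Nr1h3 with normexp (0.15, adjusted p = 0.631), for Ebp in the authors' table (0.24, adjusted p = 0.257) and for Insig2 with the mean of its probes (0.12, adjusted p = 0.702). For the 4 genes that rose most the differences were not called, with 95% intervals of -0.64 to 0.29 for Idi1, -0.31 to 0.42 for Sqle, -0.80 to 0.30 for Cyp51 and -0.94 to 0.74 for Hsd17b7. For Scd2 the difference was 0.80 ± 0.31 (adjusted p = 0.0843) and for Abcg1 -1.14 ± 0.46 (adjusted p = 0.101). The replicate block called both, among other genes (adjusted p = 0.0299 and 0.0229), and ended the call of Nr1h3 (adjusted p = 0.0613). Not every same-numbered pair of the 4 groups deviated together, so those calls rest on a pairing that is uncertain.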

How the data were processed

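RNA from 16 samples was hybridised singly to whole mouse genome arrays with 60-base probes. Per the labels' protocols, Cy3-labelled target was made from about 200 ng of RNA by T7 amplification from oligo-dT, which favours transcript ends. Per the file headers, the authors extracted the slides with Agilent Feature Extraction 9.5.3.1. The deposited intensity of each spot is its background-subtracted processed signal, linear and not normalized between arrays; probe positions are on build mm7. A deposited table of 33797 rows, whose making no source used here describes, has linear intensities with a median of 149 on every array and served as an alternative, as did mean and background intensity.

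From there, log2 of the processed signal minus the array's 75th percentile over non-control spots was used. A probe well above background on at least 3 of 4 arrays of a group was tested, and a gene took its tested probe with the highest mean. One mean per group was fitted with limma 3.58.1 (lmFit, eBayes) in R 4.3.3; p-values are two-sided, adjusted by Benjamini-Hochberg over 18404 genes. SE is from the fit. With 4 arrays a group, array number limits precision. The fit was tested on simulated data. Symbols came from the RefSeq table for 32719 of 41174 probes; others kept the file's name. Every member is named; all arrays are given for the largest called change of each role in the responses (Idi1, Sqle, Insig1, Scd2, Abcg1, Cpt1a) and the resting difference (Sqle, Srebf2, Fasn, Abca1, Acadm), and for Mvk and Elovl6, chosen after their values were seen. Of the other lipid genes, those with the 4 largest called changes of each response are named, apart from results that are not reported here. Replicate numbers were taken to pair the resting groups alone, since every same-numbered pair there correlated above 0.1. Members and lists were chosen with earlier results of these data known. Alternatives were normexp, quantile scaling, the authors' table, other probe filters and probe means, fits of 2 groups, a replicate block and omission of each array.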

Additional observations from a re-analysis of the deposited data

Results flagged for a closer look

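Of 144 levels of members within a group, 18 had 1 array far from the other 3, by a gap above Dixon's 95% critical share of the group's range; about 1 in 20 is what chance gives. Of the 18, 10 were on arrays numbered 1, which also hold the same position on each slide. On naive resting replicate 1, Idi1 was at 0.54, Srebf2 at 4.35, Insig2 at 1.17 and Fasn at 4.77, each below the other 3 arrays. On naive stimulated replicate 1, Hmgcs1 was at 3.51, Nr1h3 at -5.94 and Abca1 at -1.74, again the lowest. Memory stimulated replicate 1 was lowest for Cpt1a at -1.83, and memory resting replicate 1 was lowest for Fasn at 4.31 and highest for Acadl at 0.89. On naive stimulated replicate 4, Pmvk was high at 1.17, and Hsd17b7 at 1.43 and Nr1h2 at 1.63 were low. On naive resting replicate 4 Nsdhl was high at -1.14. On memory resting replicate 4 Srebf1 was high at 4.98 and Stard4 low at -0.35. On memory stimulated replicate 3 Srebf2 was high at 4.16 and Stard4 low at 0.21.

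Members whose response differed between the cell types by the test of the difference, as memory response minus naive response, were Elovl6 at -3.12, Nr1h3 at 0.93, Ebp at 0.66, Acadm at 0.61 and Insig2 at 0.46 (limma, adjusted p = 0.00027, 0.0446, 0.0422, 0.0202 and 0.0469). Without naive stimulated replicate 1, its far array, Nr1h3 gave 0.70 (adjusted p = 0.0576).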

How the results depend on the processing

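Over the settings other than leaving out an array, 1483 of the single-gene results kept direction and side of the threshold, 47 lost and 49 gained a call and 5 reversed. Those 5 were Srebf2 in the memory response (-0.45 in the authors' table, -0.44 with quantile scaling) and naive response (0.63 with the mean of probes), and Sc5d in the memory (-1.02) and naive response (-0.68), both with the mean of probes. Where the mean of probes reversed a result, the other probes given above differ in direction from the brightest. In the memory response the reversed Srebf2 values were those of its brightest probe, so no other probe enters them. For other changes the cause was not tested. Scaling moved the median change of all genes in the memory response between -0.21 and -0.10 and in the naive response between 0.15 and -0.01, and normexp gave -0.02 and 0.07.

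Members higher in memory resting cells numbered 0 with normexp, in the authors' table, without a filter and in a fit of only the groups compared, and 2 with the mean of probes. Members higher in memory stimulated cells numbered 1 with normexp, without a filter and in fits of 2 groups. Responses higher in memory cells numbered 1 without a filter, and lower ones 2 in the authors' table. Other lipid genes numbered 3 for resting higher with normexp, 1 and 4 for interaction higher with quantile scaling and in the authors' table, and 8 for resting lower in the authors' table. Over all genes, normexp gave 1696 resting higher, 1710 stimulated lower and 1452 interaction lower, and the authors' values gave 1682 interaction higher and 2207 resting lower. Where no count over all genes is given for a setting, the member count does not set the list apart.

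Same-numbered samples deviated together (correlation over 0.1) in 16 of 24 pairs (-0.211 to 0.585), and 16 correlated best with their own number, so the main fit did not pair samples by number. The replicate block was fitted over all 16 arrays and takes the numbers to pair all 4 groups. With a replicate block, members numbered 2 for resting higher, 11 for resting lower, 8 for interaction higher and 3 for interaction lower. Over all genes it gave 1698 interaction higher and 2412 resting lower. Its counts over all genes for resting higher and interaction lower are not given, so those member counts do not set the list apart. A slide block could not be fitted, and normexp without repair was not used, because bright local background on 3 arrays broke it.

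Leaving out 1 array at a time gave 13 to 13 members higher and 16 to 17 lower in the memory response, 15 to 15 and 16 to 18 in the naive response, 0 to 2 and 5 to 10 at rest, 1 to 3 and 6 to 11 after stimulation, and 1 to 6 and 1 to 3 for the interaction. Over all genes these ranges were 5241 to 5648 and 7077 to 7695, 6263 to 6959 and 5579 to 5935, 1879 to 3264 and 851 to 1927, 1370 to 2109 and 1852 to 2957, and 724 to 1274 and 2167 to 3046. Signal near background limits Nr1h3 and Scd1.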
